A study of Mus musculus with 6 samples.

Results

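Kif11, Kif14, Kif20a, Kif23, Anln, Ect2, Racgap1, Prc1 and Cit are the 9 mitotic kinesin and cytokinesis genes described here, chosen by gene symbol from the 11108 genes listed in the deposited table, which holds each of them. RNA-seq libraries were made from hematopoietic stem cells of Mcph1-/- mice (3 libraries) and of wild-type (WT) mice (3 libraries), untreated in both cases. The cells were taken from bone marrow and sorted as lineage-negative, Sca-1+, c-kit+, CD34- and CD150+ cells, and libraries were prepared by Smart-seq2, which copies whole transcripts from few cells, with 200 cells each. The sources used here do not give the age and strain of the mice, the deleted part of Mcph1, or whether each library stands for its own mouse, so the spread behind each p-value is that among libraries and may be technical.

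A cell that has duplicated its chromosomes builds a bipolar spindle, pulls the chromosomes apart and then divides its cytoplasm by cytokinesis. Kinesins are motor proteins that walk along microtubules or bundle them, and a group of them acts on the spindle and on its midzone, the overlap of microtubules that marks where the cell will divide. There the centralspindlin complex of Kif23 and Racgap1 recruits the exchange factor Ect2, which switches on the GTPase RhoA, and RhoA drives the contractile ring that Anln and Cit help to organise. Most adult hematopoietic stem cells are out of the cell cycle at any time, and transcripts of such late cell cycle genes are commonly used as signs of dividing cells. In bulk libraries such as these, fewer cells that express a gene and less of its RNA per cell cannot be told apart.

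Promoters of late cell cycle genes often carry a cell-cycle homology region with the letters TTTGAA near the start of transcription, which is read by the MuvB core of the DREAM and B-MYB complexes, and CCAAT boxes upstream of it, which are bound by NF-Y. RefSeq promoter windows (GRCm38.p6, 250 bases before to 50 after the start) were matched by symbol for 8 of the 9 genes, all but Kif20a. TTTGAA on either strand, which on the opposite strand reads TTCAAA, lay in the window of 7 of these 8 genes (all but Cit), against 20.2% of 27025 genes with a window. Within 50 bases of the start, a distance chosen after the positions were seen, it lay in 6 of 8 (Kif11, Kif23, Anln, Ect2, Racgap1 and Prc1), against 5.72% of all genes. CCAAT on either strand lay in 6 of 8 windows, against 41.1% of all genes, and the variant TTCGAA, which is its own reverse complement, lay in none, against 1.80%. The 6 windows with TTTGAA near the start are shown from 70 bases before the RefSeq start through the first 30 bases of the transcript, 5′ to 3′ on the strand of the gene, to show where the letters stand in each; capitals mark TTTGAA or TTCAAA.
Kif11: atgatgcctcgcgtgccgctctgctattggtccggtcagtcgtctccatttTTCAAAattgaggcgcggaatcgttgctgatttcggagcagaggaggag
Kif23: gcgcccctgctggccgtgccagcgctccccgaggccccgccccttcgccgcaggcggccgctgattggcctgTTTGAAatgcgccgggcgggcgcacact
Racgap1: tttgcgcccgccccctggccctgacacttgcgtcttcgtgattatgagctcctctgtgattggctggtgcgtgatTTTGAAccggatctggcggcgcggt
Ect2: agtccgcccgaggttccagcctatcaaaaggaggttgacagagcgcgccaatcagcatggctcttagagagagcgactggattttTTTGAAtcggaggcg
Anln: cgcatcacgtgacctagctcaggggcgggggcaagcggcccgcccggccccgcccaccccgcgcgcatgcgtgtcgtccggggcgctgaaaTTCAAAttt
Prc1: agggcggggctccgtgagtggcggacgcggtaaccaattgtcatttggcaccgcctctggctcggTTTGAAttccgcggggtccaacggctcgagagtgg

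These stretches are chr19:37376312-37376411 (plus strand) for Kif11, chr9:61946770-61946869 (minus) for Kif23, chr15:99651627-99651726 (minus) for Racgap1, chr3:27153825-27153924 (minus) for Ect2, chr9:22389177-22389276 (minus) for Anln and chr7:80294381-80294480 (plus) for Prc1. For Ect2 the stretch belongs to the RefSeq start that lies 24 bases downstream of the gene start. In Racgap1 and Kif23, the subunits of centralspindlin, TTTGAA began at base 6 and base 3 of the transcript, with ATTGG, the opposite strand of CCAAT, beginning 12 and 7 bases before the start. Anln had a second TTTGAA beginning at base 29, just past TTCAAA at base 22. In Kif14 the letters lay 228 bases before the RefSeq start, which is 1505 bases downstream of the gene start in the GENCODE annotation. A match of letters is a description of the sequence and does not show that a factor is bound there.

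**Figure D1:**
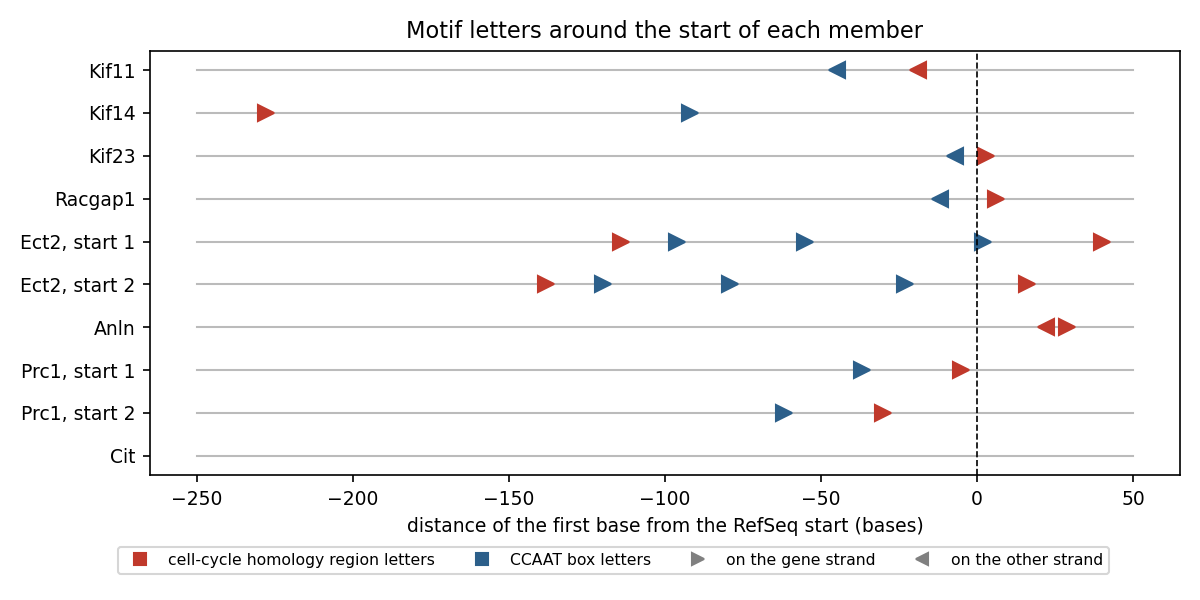
Position of TTTGAA (red) and CCAAT (blue) letters in the RefSeq promoter windows of 8 genes, as the distance in bases of the first base of the match from the start, with right-pointing marks on the strand of the gene and left-pointing marks on the other strand; Ect2 and Prc1 have 2 RefSeq starts each. A red mark lies within 50 bases of a start in 6 of the 8 genes, and Cit has neither motif in its window.

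The libraries held 9464810 to 10455908 reads in Mcph1-/- and 8102605 to 8655123 reads in WT over the listed genes, with reads found for 10516 to 10777 genes in Mcph1-/- and 10209 to 10335 in WT. Values below are normalised read counts, which are reads divided by the authors' size factor of each library, so that 1 read is worth 0.820 to 1.08. Mcph1 itself, whose deletion defines the genotype, stood at 428, 37.7 and 234 in Mcph1-/- replicates 1 to 3 and at 160.5, 341 and 34.4 in WT replicates 1 to 3, so reads summed along the gene do not separate the genotypes, the deleted part is unknown here, and each direction below rests on the labels. All 15 markers chosen for hematopoietic stem cells were read in both genotypes. Of them, Slamf1, which encodes CD150, was at 0 in WT replicate 1, at a single read in Mcph1-/- replicate 3 and as high as 395 in Mcph1-/- and 497 in WT. The neutrophil genes S100a8 and Ngp ranged from 153 to 327 and from 0.912 to 16.1 in Mcph1-/- and from 17462 to 30971 and from 10516 to 17184 in WT. Ranges overlapped between the genotypes for the neutrophil genes Mpo, Elane and Prtn3. The erythroid gene Car1 ranged from 23716 to 31845 in Mcph1-/- and from 1628 to 4566 in WT. Every Mcph1-/- library lay above every WT library for 5 of the 11 listed erythroid markers, where 7.40% of tested genes did so. They were Car1, Klf1, Gata1, Blvrb and Ermap. The globin genes Hba-a1, Hba-a2 and Hbb-bs went the other way, with every Mcph1-/- library below every WT library, where 6.80% of tested genes did so. Hba-a1 ranged from 55.0 to 185 in Mcph1-/- and from 251 to 8516 in WT. The globin gene Hbb-bt overlapped, from 43.8 to 86.6 in Mcph1-/- and from 13.4 to 256 in WT.

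Kif11 separated the genotypes most widely among the 9 genes, Anln was the other gene whose libraries did not overlap, and Kif20a, Kif23 and Ect2 showed no such separation. By the mean of log2(value + 1), 7 of the 9 genes were higher in Mcph1-/- and 2 were lower, where 53.8% of the 10846 tested genes were higher. None of the 9 passed the adjusted p of 0.05 across all tested genes in limma, where 0.0369% of genes passed in either direction and 0.00922% passed as higher in Mcph1-/-, and 1 (Kif11) had an unadjusted p under 0.05, where 7.71% of genes did. DESeq2 on the recovered reads passed 1 of them upward, Kif11, where 1.13% of genes passed upward, and edgeR passed none. All Mcph1-/- libraries lay above all WT libraries for 2 of the 9, where 7.40% of tested genes did so, and the reverse held for none of the 9, where 6.80% of tested genes did so. The median log2 fold change (Mcph1-/- over WT) of the 9 genes was 1.13, against 0.08 over all tested genes. Leaving out 1 library moved this median of the 9 genes between 0.41 (WT replicate 2 left out) and 1.997 (Mcph1-/- replicate 1 left out), with 0.54 when Mcph1-/- replicate 2 and 1.88 when Mcph1-/- replicate 3 was left out.

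**Figure D2:**
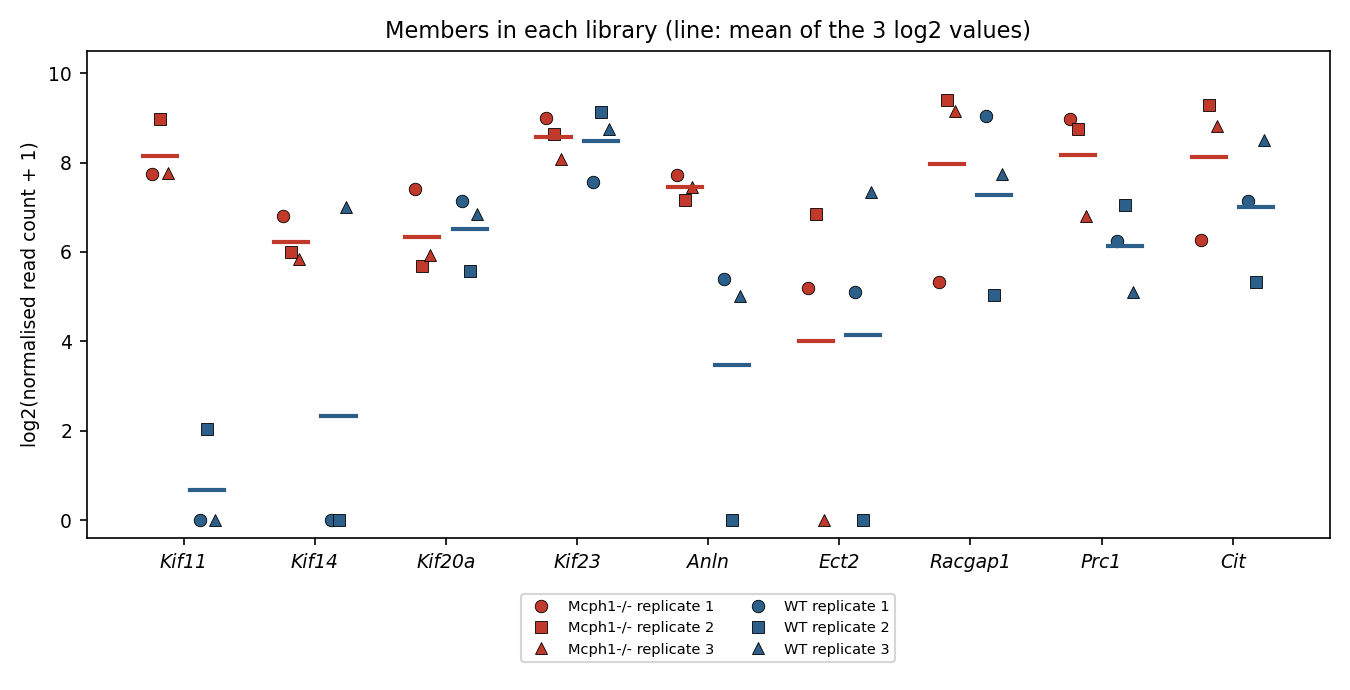
Level of each of the 9 genes in each library, as log2 of the normalised read count plus 1, with Mcph1-/- in red to the left of WT in blue, symbols for replicates and a line at the mean of the 3 log2 values. Kif11 and Anln are the genes in which all 3 red symbols lie above all 3 blue ones, while Kif23 and Kif20a overlap throughout.

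Kif11 encodes kinesin-5, the motor that slides antiparallel microtubules apart and keeps the spindle bipolar. The gene (ENSMUSG00000012443) occupies chr19:37376403-37421859 on the plus strand (mm10), with no exonic sequence shared with another gene. The normalised read count of Kif11 was 213, 499.6 and 215 in Mcph1-/- replicates 1 to 3 and 0, 3.09 and 0 in WT replicates 1 to 3. The Mcph1-/- libraries thus held 234, 609 and 241 reads of Kif11, while 2 WT libraries held none and the other held 3. Genes with reads in fewer than 4 of the 6 libraries have no value here. Kif11 is listed at that minimum, through the 3 reads in WT replicate 2. Its mean value reached the filter of 10 through the Mcph1-/- libraries. The means were 309 ± 165 in Mcph1-/- and 1.03 ± 1.78 in WT (SD, n = 3), and the log2 fold change was 7.48 (SE 1.51, adjusted p = 0.428 in limma). The depth-adjusted ratio of all reads was 303, with exact 95% limits of 103 and 1472 for counting error alone. By DESeq2 the log2 fold change was 8.22 (adjusted p = 2.44e-07) and by edgeR 8.09 (adjusted p = 0.618). A count of 0 in WT replicates 1 and 3 allows a normalised read count of up to 3.25 and 3.04 there.

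Kif14, Kif20a and Kif23 encode motors of the central spindle and midbody. Kif14, which binds Prc1 and the citron kinase and is needed late in cytokinesis, occupies chr1:136466343-136531511 on the plus strand. Kif14 had normalised read counts of 111, 63.2 and 56.2 in Mcph1-/- replicates 1 to 3 and 0, 0 and 127 in WT replicates 1 to 3. The 3 Mcph1-/- libraries were within 1.98-fold of each other, whereas WT held both the lowest values and the highest one. The log2 fold change was 3.89 (SE 2.17, adjusted p = 0.667 in limma), while the log2 ratio of the group means, 76.9 ± 29.98 in Mcph1-/- and 42.2 ± 73.1 in WT (SD, n = 3), was 0.87. Without WT replicate 3, the WT library that held Kif14 reads, the log2 fold change was 6.22.

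Kif20a, which carries the chromosomal passenger complex to the midzone, lies on chromosome 18. For Kif20a the normalised read count was 168, 50.9 and 59.8 in Mcph1-/- replicates 1 to 3 and 141, 46.4 and 113 in WT replicates 1 to 3. The ranges overlapped nearly completely, with a log2 fold change of -0.18 (SE 1.11, adjusted p = 0.975 in limma). The exons of Kif20a share 1271 bases with Cdc23 on the opposite strand, and no source used here gives the strand setting of the counting, so Kif20a is uncertain. Cdc23, a subunit of the anaphase-promoting complex, stood at 673 ± 46.2 in Mcph1-/- and 648 ± 214 in WT (SD, n = 3).

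Kif23, the motor subunit of centralspindlin, occupies chr9:61915905-61946774 on the minus strand. Kif23 had normalised read counts of 507, 395 and 268 in Mcph1-/- replicates 1 to 3 and 188, 555 and 428 in WT replicates 1 to 3. Kif23 was read in every library with at least 173 reads, and both the lowest and the highest value belonged to WT. The means were 390 ± 120 in Mcph1-/- and 390 ± 187 in WT (SD, n = 3), and the log2 fold change was 0.09 (SE 0.56, adjusted p = 0.975 in limma).

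Racgap1, the other subunit of centralspindlin and a GTPase-activating protein, occupies chr15:99620496-99651656 on the minus strand. Racgap1 had normalised read counts of 39.2, 678 and 566 in Mcph1-/- replicates 1 to 3 and 528, 31.9 and 215 in WT replicates 1 to 3. A single library was low in each genotype, so that the highest value was 17.3 times the lowest within Mcph1-/- and 16.5 times within WT. The log2 fold change was 0.68 (SE 1.38, adjusted p = 0.910 in limma), and it was -0.44 without WT replicate 2 and -0.04 without Mcph1-/- replicate 2. Although Kif23 and Racgap1 form 1 complex, their transcripts were not in a steady proportion. Per kilobase of exon, the level of Kif23 was 11.6, 0.521 and 0.424 times that of Racgap1 in Mcph1-/- replicates 1 to 3 and 0.318, 15.6 and 1.79 times in WT replicates 1 to 3.

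Ect2, the RhoA exchange factor that Racgap1 recruits to the midzone, occupies chr3:27097222-27153878 on the minus strand. For Ect2 the normalised read count was 35.6, 115 and 0 in Mcph1-/- replicates 1 to 3 and 33.6, 0 and 159.9 in WT replicates 1 to 3. Each genotype had 1 library without a read, and the highest value was in WT. The log2 fold change was -0.13 (SE 2.54, adjusted p = 0.992 in limma), and it took either sign when 1 library was left out, from -2.21 without WT replicate 2 to 1.88 without Mcph1-/- replicate 3.

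Anln encodes anillin, the scaffold that ties actin, myosin, septins and RhoA together in the contractile ring, and it occupies chr9:22332012-22389188 on the minus strand. Anln had normalised read counts of 209, 142 and 175 in Mcph1-/- replicates 1 to 3 and 41.2, 0 and 31.4 in WT replicates 1 to 3. The lowest Mcph1-/- library lay above the highest WT library by more than the whole range of WT, and the Mcph1-/- libraries were within 1.47-fold of each other. The means were 175 ± 33.5 in Mcph1-/- and 24.2 ± 21.5 in WT (SD, n = 3), a ratio of 7.24. The log2 fold change was 3.97 (SE 1.75, adjusted p = 0.652 in limma) and 2.24 without WT replicate 2, the library without a read, while by DESeq2 it was 2.85 (adjusted p = 0.403).

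Prc1, which cross-links antiparallel microtubules and so builds the midzone, occupies chr7:80294450-80316259 on the plus strand. In the case of Prc1, the normalised read count was 501, 429 and 111 in Mcph1-/- replicates 1 to 3 and 74.8, 131 and 33.4 in WT replicates 1 to 3. Mcph1-/- replicates 1 and 2 were above all WT libraries, and Mcph1-/- replicate 3 lay below WT replicate 2. The means were 347 ± 208 in Mcph1-/- and 79.7 ± 48.9 in WT (SD, n = 3), and the log2 fold change was 2.04 (SE 0.98, adjusted p = 0.662 in limma). The exons of Prc1 share 911 bases with Rccd1 on the opposite strand, so Prc1 is uncertain in the same way as Kif20a.

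Cit encodes the citron kinase, which organises the midbody, and it occupies chr5:115845278-116008947 on the plus strand. Cit had normalised read counts of 75.7, 623 and 451 in Mcph1-/- replicates 1 to 3 and 141, 39.1 and 364 in WT replicates 1 to 3. Mcph1-/- replicates 2 and 3 held the highest values, but Mcph1-/- replicate 1 lay below WT replicates 1 and 3. The log2 fold change was 1.13 (SE 1.12, adjusted p = 0.785 in limma), and it was 0.29 without WT replicate 2 and 2.06 without Mcph1-/- replicate 1.

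**Figure D3:**
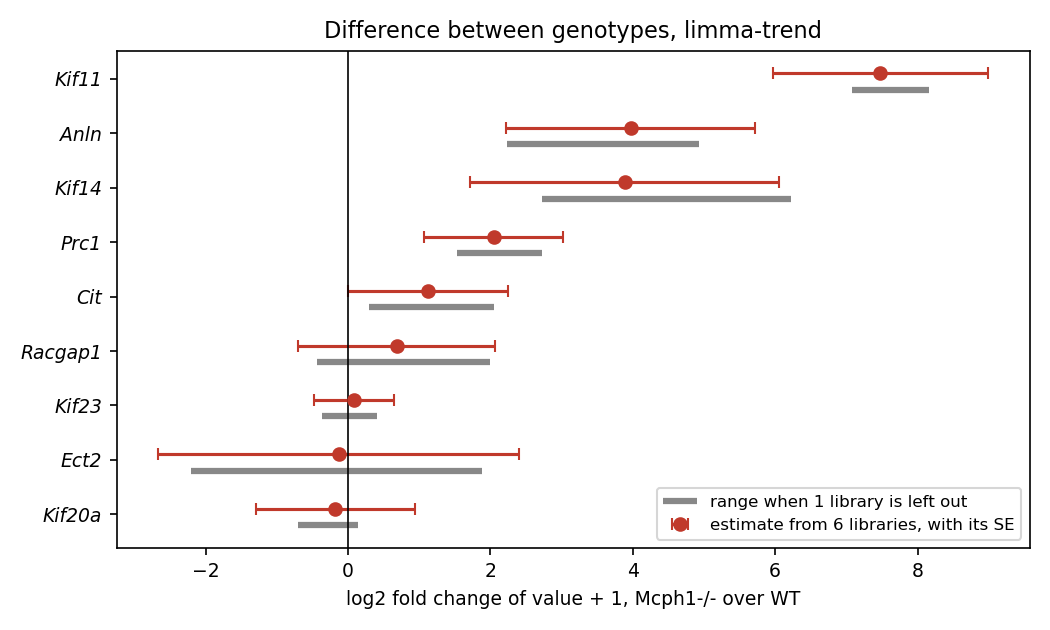
Log2 fold change of each of the 9 genes (Mcph1-/- over WT, on value + 1) with its SE from limma as a red point and bar, and in grey the range of the estimates when each library in turn is left out. The grey range stays above 0 for Kif11, Anln, Kif14, Prc1 and Cit and crosses 0 for Racgap1, Kif23, Ect2 and Kif20a.

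Summed over the 9 genes, the normalised read count was 1860.0, 2996 and 1902 in Mcph1-/- replicates 1 to 3 and 1147, 807 and 1472 in WT replicates 1 to 3. Without Kif11 the sums were 1647, 2496 and 1687 in Mcph1-/- and 1147, 804 and 1472 in WT. The genotypes did not overlap in either sum, but the separation without Kif11 depends on Prc1 and on Anln. In Mcph1-/- replicate 1, Prc1 gave 501 and Anln 209 of the 1647. In WT replicate 3, Prc1 gave 33.4 and Anln 31.4 of the 1472. The share of other gene sets whose sums do not overlap was not computed. Of the 54 values, 7 were at 0, in Kif11, Kif14, Anln and Ect2. Among them 1 was of the 27 in Mcph1-/- (3.70%, against 3.87% over all tested genes) and 6 were of the 27 in WT (22.2%, against 7.31%). The members detected numbered 9, 9 and 8 in Mcph1-/- replicates 1 to 3 and 7, 6 and 8 in WT replicates 1 to 3.

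Most of the 9 genes varied more between replicates than the median gene, and the library with the highest value differed from gene to gene. The SD of log2 values between replicates had a median over the 9 genes of 0.92 in Mcph1-/- and 1.60 in WT, against 0.61 in Mcph1-/- and 0.85 in WT over all tested genes. It exceeded the median of all genes for 6 members in Mcph1-/- and for 7 in WT. The members were not matched to other genes by level. The largest SDs were those of Ect2 in Mcph1-/- (3.58) and of Kif14 (4.04), Ect2 (3.76) and Anln (3.01) in WT. Each of these had at least 1 library at 0 in that genotype. Mcph1-/- replicate 1 was the highest of the 6 libraries for Kif20a, Anln and Prc1 and had the second lowest value for Racgap1 and for Cit. Mcph1-/- replicate 2 was the highest for Kif11, Racgap1 and Cit. WT replicate 3 held the highest value of Kif14 and of Ect2, and WT replicate 2 the highest of Kif23 and the lowest of Kif20a, Anln, Racgap1 and Cit. Kif14 and Ect2 were also at 0 in WT replicate 2, each together with another library.

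**Figure D4:**
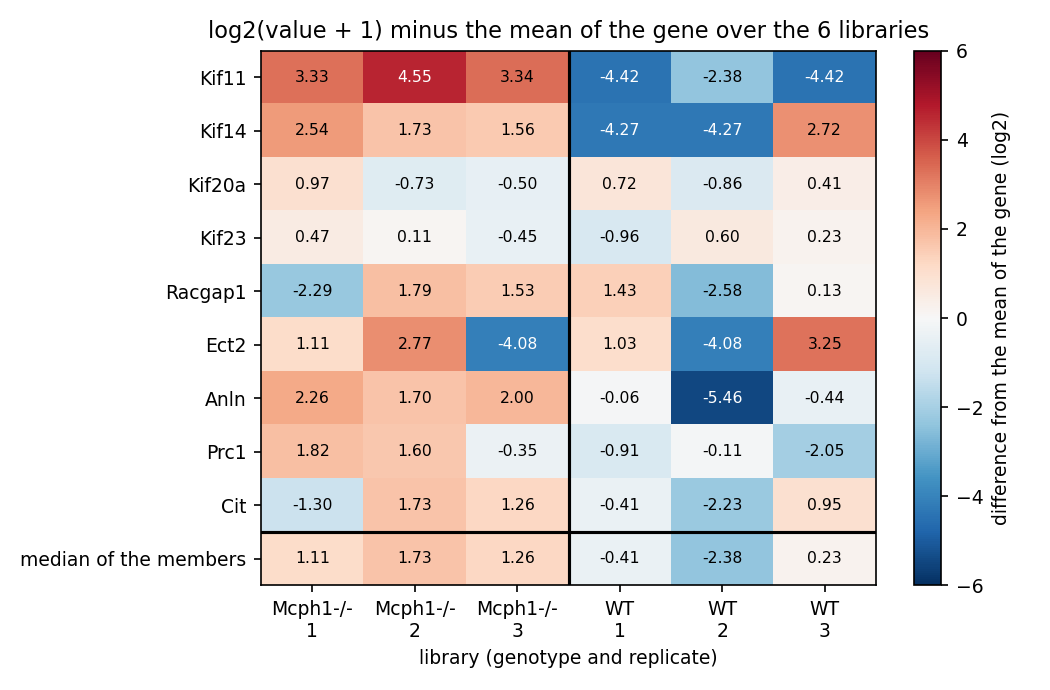
Log2(value + 1) of each gene in each library minus the mean of that gene over the 6 libraries, with Mcph1-/- libraries left of WT libraries and the median of the 9 genes in the last row. The median row is 1.11, 1.73 and 1.26 in Mcph1-/- and -0.41, -2.38 and 0.23 in WT, while Kif23 stays between -0.96 and 0.60.

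Levels per kilobase of exon were taken over all annotated exons of a gene, which can be longer than its transcript, so different genes compare only roughly. On this scale the mean level in Mcph1-/- ran from Racgap1 (60.4 ± 48.2, SD, n = 3) through Kif23 (49.3), Prc1 (42.2), Kif11 (41.5), Cit (23.4), Kif20a (21.4), Anln (19.3) and Ect2 (9.31) to Kif14 (7.42 ± 2.89). In WT the mean level ran from Kif23 (49.4 ± 23.6) through Racgap1 (36.5), Kif20a (23.1), Ect2 (12.0), Cit (11.1), Prc1 (9.69), Kif14 (4.07) and Anln (2.67) to Kif11 (0.138 ± 0.239). In both genotypes the ranges of any 2 neighbours in that order overlapped, so the order of neighbours is not resolved. Among all listed genes, Kif11 stood at the percentiles 45.2, 65.3 and 44.8 by normalised read count in Mcph1-/- and at 0, 8.81 and 0 in WT, while Kif23 stood at 66.9, 60.1 and 50.5 in Mcph1-/- and at 42.8, 67.9 and 61.4 in WT.

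The genes outside the 9 whose centred values over the 6 libraries lay closest to the median of the 9 were Hmmr (mean absolute difference 0.27 on the log2 scale), Klf1 (0.33), Slc39a13 (0.36), Hadha (0.38) and Pla2g12a (0.39). Among the 9 genes themselves this difference ran from 0.55 for Cit to 2.63 for Kif11. Of the genes outside the 9, predicted models and pseudogenes set aside, 33 lay closer to the median than Cit. The same count was 2933 for Prc1 and 8297 for Kif11, so the median is not a profile that all 9 genes share. Hmmr, a spindle-associated protein, stood at 278, 368 and 326 in Mcph1-/- replicates 1 to 3 and at 65.1, 15.5 and 156 in WT replicates 1 to 3. Klf1, the erythroid transcription factor, stood at 2997, 2883 and 2394 in Mcph1-/- and at 683, 199.9 and 1017 in WT.

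Most other mitotic kinesins had higher values in Mcph1-/-, and none passed the test in limma. Of 10 genes in this list, 7 were tested, 6 of them higher and 1 lower (median log2 fold change 1.08), and 3 of the 7 lay in Mcph1-/- above all WT libraries, where 7.40% of all tested genes did so. Kif22, a chromosome arm motor that pushes chromosomes towards the metaphase plate, stood at 1301, 1269.8 and 566 in Mcph1-/- replicates 1 to 3 and at 152, 256 and 245 in WT replicates 1 to 3, a log2 fold change of 2.20 (SE 0.48, adjusted p = 0.478 in limma; adjusted p = 0.000109 in DESeq2). Kif15, a motor that can stand in for Kif11 in keeping the spindle bipolar, stood at 205, 317 and 219.6 in Mcph1-/- and at 1.08, 8.24 and 84.0 in WT, with a log2 fold change of 4.37 (SE 1.62, adjusted p = 0.626 in limma). Kif15 was low in the same 2 WT libraries, replicates 1 and 2, in which Kif14 was not read, whereas Kif11 was at most at 3 reads in all 3 WT libraries. Kif20b, a paralog of Kif20a that acts in abscission, had a log2 fold change of 1.08 (SE 0.43, adjusted p = 0.637 in limma), and Kif4, the chromokinesin partner of Prc1, one of 2.58 (SE 1.67, adjusted p = 0.698 in limma). Without WT replicate 2, which held 2 reads of Kif4, that of Kif4 was 0.88, and by DESeq2 it was 1.79.

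Kinesins and light chains that carry cargo outside mitosis were split. Of 20 genes, 13 were tested, 6 higher and 7 lower (median log2 fold change -0.27), and none passed in limma. The smallest p-values were those of Kif21b (log2 fold change 4.44, SE 1.67), Kif3a of kinesin-2 (0.80, SE 0.55), Kif16b (-2.33, SE 1.62) and Kif21a (2.58, SE 2.07). For Kif21a it was 0.58 without WT replicate 1, and for Kif16b -0.46 without Mcph1-/- replicate 3. Kif21b held 3, 0 and 18 reads in WT replicates 1 to 3. It was the 1 gene of the 13 in Mcph1-/- above all WT libraries, where 7.40% of all tested genes did so. None of the 13 lay below all WT libraries, where 6.80% of all tested genes did so. The list median turned positive without Mcph1-/- replicate 3 (0.17) and without WT replicate 2 (0.22). The summed normalised read count of this list was 2719 to 3476 in Mcph1-/- and 3387 to 4402 in WT, whereas that of the other mitotic kinesins was 2642 to 3311 in Mcph1-/- and 907 to 1868 in WT.

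The contractile ring and abscission genes that the 9 genes work with had medians near that of all tested genes (0.08). Of 20 contractile ring genes, among them RhoA, its kinases, myosin II and septins, 18 were tested, 11 higher and 7 lower (median log2 fold change 0.05). Their summed normalised read count was 68899 to 71023 in Mcph1-/- and 67387 to 69348 in WT. Pfn1 and Cfl1 make up most of these sums. Pfn1 ranged from 30633 to 33022 in Mcph1-/- and from 30611 to 31260 in WT. Cfl1 ranged from 19651 to 21654 in Mcph1-/- and from 18983 to 21408 in WT. Named members were Mylk, a myosin light chain kinase (log2 fold change 3.91, SE 1.91), Septin7 (0.63, SE 0.31), the myosin light chain Myl12b (-0.22, SE 0.16) and Ppp1r12a, a subunit of myosin phosphatase (0.58, SE 0.56). Mylk held 0 reads in WT replicates 1 and 2, 18 in WT replicate 3 and 9 in Mcph1-/- replicate 3, so its ranges overlapped. Of 19 abscission genes, which include the ESCRT-III subunits that cut the last bridge, 16 were tested, 9 higher and 7 lower (median log2 fold change 0.12). Chmp2a had a log2 fold change of -0.42 (SE 0.21), Cep55, the midbody adaptor, one of 4.16 (SE 2.22) with 0 reads in WT replicates 1 and 3 and a normalised read count of 105 in WT replicate 2, Pdcd6ip, which recruits ESCRT-III, one of 2.04 (SE 1.19), and Chmp7 one of 3.93 (SE 2.42), likewise with 0 reads in WT replicates 1 and 3. WT replicate 2 held the highest value of Chmp7 in any library, 259, and by DESeq2 the log2 fold change was 0.62 for Chmp7 and 1.73 for Cep55. That of Pdcd6ip was 0.50 without WT replicate 3. None of these genes passed in limma.

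Regulators of cytokinesis and regulators of late cell cycle promoters had smaller medians than the 9 genes, and the difference between the lists was not tested. Of 5 genes of the chromosomal passenger complex and Plk1, all tested, 4 were higher and 1 lower (median log2 fold change 0.55), and none passed in limma. Birc5, or survivin, had a log2 fold change of 1.02 (SE 0.38), Cdca8, or borealin, 0.85 (SE 0.56), Plk1, the polo kinase that licenses Ect2 recruitment, 0.55 (SE 0.59), and Incenp, the scaffold of the complex, -0.98 (SE 1.12). Of 16 genes of MuvB, DREAM, NF-Y, B-MYB and FOXM1, 13 were tested, with no value here for Mybl2, which encodes B-MYB, Foxm1 or the DNA-binding MuvB subunit Lin54. Of the 13, 8 were higher and 5 lower (median log2 fold change 0.13), and none passed in limma. The median of this list was -0.03 without Mcph1-/- replicate 1. The MuvB subunit Lin37 was 1755, 1314 and 1172 in Mcph1-/- and 2182, 1887 and 2443 in WT, with a log2 fold change of -0.63 (SE 0.24, adjusted p = 0.626 in limma). Rbl1, or p107, had one of 4.94 (SE 2.03) with 0 reads in WT replicates 2 and 3, Lin52 one of -1.91 (SE 0.93) and E2f5 one of 2.06 (SE 1.27).

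Most genes used as general signs of dividing cells had higher values in Mcph1-/-, in a list chosen with this pattern already known. All 17 tested of 18 were higher by the mean of log2 values (median log2 fold change 1.89), and 10 of them lay in Mcph1-/- above all WT libraries, where 7.40% of all tested genes did so. The genotypes overlapped in the others, among them Pcna, with a log2 fold change of 0.13 (SE 0.54), and Plk4, whose mean value was 96.7 in Mcph1-/- and 132 in WT. None passed in limma, and DESeq2 passed 4 of them as higher, Ube2c, Ccnb2, Ccna2 and Ttk, where 1.13% of genes passed as higher. The spindle checkpoint kinase Ttk was 36.5, 127 and 147 in Mcph1-/- replicates 1 to 3 and 0, 4.12 and 0 in WT replicates 1 to 3, a pattern of near absence in WT like that of Kif11. Ttk too is listed at the minimum of 4 libraries with reads, through 4 reads in WT replicate 2. Ube2c, Ccnb2 and Ccna2, the ubiquitin-conjugating enzyme that works with the anaphase-promoting complex and a pair of mitotic cyclins, had log2 fold changes of 2.40 (SE 0.39), 1.65 (SE 0.38) and 1.98 (SE 0.49).

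**Figure D5:**
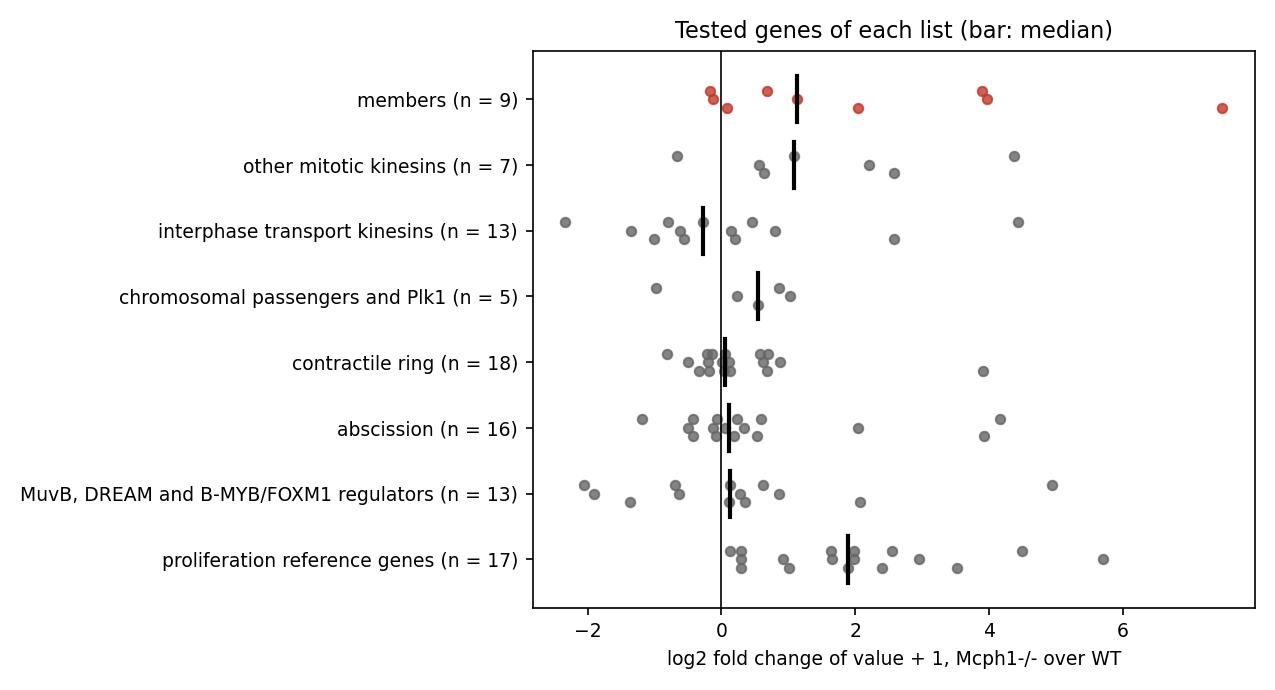
Log2 fold change (Mcph1-/- over WT, on value + 1) of each tested gene in the 9 members and in 7 lists of related genes, with a bar at the median of each. The members (median 1.13), the other mitotic kinesins (1.08) and the proliferation genes (1.89) lie mostly to the right of 0, while contractile ring genes (0.05) and abscission genes (0.12) are centred near 0.

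Markers of other blood cells differed between the same libraries. The summed normalised read count of the 11 listed erythroid markers was 31639 to 39810 in Mcph1-/- and 4770 to 22195 in WT, with 7 of 11 higher. Car1 makes up most of the Mcph1-/- sums (23716 to 31845). Hba-a1, Hba-a2 and Hbb-bs had log2 fold changes of -3.40 (SE 1.21), -3.27 (SE 1.79) and -5.03 (SE 2.10), and Hbb-bt one of 0.14 (SE 1.45). The erythroid markers thus did not share 1 direction. The summed value of the 7 listed neutrophil markers was 3287 to 18724 in Mcph1-/- and 58564 to 67847 in WT, with 6 of 7 lower. Mpo, Elane and Prtn3 overlapped between the genotypes, and Mpo was higher, with a log2 fold change of 1.45 (SE 3.61). The 4 listed monocyte and macrophage markers summed to 4772 to 5146 in Mcph1-/- and 8178 to 13107 in WT, with all 4 lower. Lyz2 makes up most of these sums (4400 to 4628 in Mcph1-/- and 7454 to 12241 in WT). Ly6c2, Cd68 and Ms4a6c overlapped, with log2 fold changes of -4.58 (SE 2.33), -0.70 (SE 2.47) and -0.04 (SE 0.46). Of these markers Car1, S100a8, S100a9 and Ngp passed the adjusted p of 0.05 in limma, and they are the 4 genes (0.0369%) that passed over the whole table. The 7 listed megakaryocyte markers summed to 4012 to 4845 in Mcph1-/- and 6306 to 8727 in WT, with 5 of 7 lower, the 4 listed lymphoid markers to 909 to 4249 in Mcph1-/- and 1277 to 3998 in WT, with 3 of 4 higher, and the 15 stem cell markers to 19969 to 21944 in Mcph1-/- and 25703 to 28847 in WT, with 10 of 15 lower. Among defining markers, Gata1 was at 0 in WT replicate 3, Epor in WT replicate 2, Elane in Mcph1-/- replicate 2, Ly6c2 in Mcph1-/- replicates 1 and 2, and Cd79a and Ebf1 in Mcph1-/- replicate 1 and WT replicate 3. The part of these differences, and of the higher number of genes detected in Mcph1-/-, in the values of the 9 genes was not tested.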

How the data were processed

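Smart-seq2 libraries of 200 cells were sequenced with paired 150-bp reads, per the labels' protocols. Trim Galore 0.6.6, HISAT2, featureCounts, DESeq2 and mm10 are named without role or order in the submitters' processing notes. The deposited values are a signal, gene read counts that the authors divided by 1 size factor per library. This was worked out from the values: 100% are whole multiples of 1 read's value (tolerance 0.001 reads), and size factors recomputed from the recovered reads equalled those in the table. Genes with reads in fewer than 4 of the 6 libraries have no value here.

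Genotypes were compared with limma 3.58.1 (trend) on log2(value + 1), all 6 libraries, genotype alone, for the 10846 genes averaging 10 or more, with Benjamini-Hochberg adjustment. edgeR 4.0.16, DESeq2 1.42.0 and limma-voom on the recovered reads, other filters, pseudocounts and scalings, a replicate block and leaving out each library were alternatives. All tools were tested on simulated data. The members and lists were chosen with earlier results of these data known. Named genes are the 9 members, up to 4 genes of smallest p in each list where none passed, and the 5 genes of closest profile; marker genes, Mcph1, Cdc23 and library facts were added. Positions and exon lengths come from GENCODE vM21, matched for 96.2% of listed genes. Protein sequences were not used here, and 1 gene list and 1 marker are not reported here. Intervals and floors (3 reads) cover counting error only, since reads are not independent molecules.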

Additional observations from a re-analysis of the deposited data

How the results depend on the processing

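None of the 9 genes passed under any alternative that gives a p-value except DESeq2, which passed 1 of them, Kif11. The number of genes passing over the whole table was 4 in limma-trend and 1 by limma-voom, 2 by edgeR and 238 by DESeq2, and it ranged from 1 to 4 when 1 library was left out. The median log2 fold change of the 9 genes ranged from 0.41 to 1.997 when 1 library was left out and from 0.86 to 1.18 under the other alternatives. The direction of Kif23 reversed by DESeq2 (-0.0038) and by the ratio of group means (-0.0018). When 1 library was left out, log2 fold changes ranged from -0.37 to 0.41 for Kif23, from -0.71 to 0.15 for Kif20a, from -0.44 to 1.997 for Racgap1 and from -2.21 to 1.88 for Ect2, each with a change of sign, and the cause was not tested. Kif11 ranged from 4.15 with a pseudocount of 16 to 8.23 by the ratio of group means, and Kif14 from 0.86 by DESeq2 to 6.22 without WT replicate 3.

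No pairing of the libraries by replicate number was seen. Same-numbered libraries of the genotypes had correlations of deviations from their group means of -0.014, 0.018 and -0.030, against -0.027 to 0.040 for other-numbered libraries. With 3 libraries per genotype this cannot exclude a pairing. With the replicate number as a block, 3 genes passed over the whole table and none of the 9. Members held from 0 to 827 reads in a library, so that with 200 cells per library differences below those ranges between replicates are not resolved.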
